A study of Mus musculus with 12 samples.

Results

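The 43 genes described here carry out mitosis and cytokinesis, and were read out of a table of 24453 genes by symbol. They were grouped by what their proteins do, with earlier results of these libraries known. They were measured as polyadenylated RNA of pro-erythroblasts (Pro-E), the earliest morphologically recognisable red cell precursors, sorted from mouse bone marrow into 12 libraries that each pooled 2–3 mice. The 4 groups of 3 libraries were C57BL6 (WT) mice given PBS, β-thalassemic mice (th1/th1, homozygous for loss of an adult β-globin gene) likewise given PBS, β-thalassemic mice given apo-transferrin (apoTf), and WT mice given apoTf. ApoTf is human transferrin carrying no iron and was injected into the peritoneum at 10 mg, which the labels give as 400 mg/kg per day, for 20 days, with cells taken 3 days after the last injection. Age is 5 months in the labels and 3–4 months in the methods of the study, β-thalassemic mice are described as being on a mixed background, and a phlebotomy is described for every library, although no source says that these particular mice underwent it. The comparisons address how Pro-E differ in β-thalassemia and which differences come back toward WT after apoTf.

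The genotype tags of the 12 libraries contradict their titles throughout, each tag naming the other genotype, and the titles were used here. Hbb-b1, the adult β-globin gene that th1 removes, was at 722 to 1788 FPKM in WT libraries and at 1096 to 3241 FPKM in apoTf-treated WT libraries, against 133 to 175 FPKM in β-thalassemic and 97.5 to 204 FPKM in apoTf-treated β-thalassemic libraries, as the titles have it. FPKM scales the reads of a gene to its exon length and to the size of the library, so that levels can be compared between genes. The number of reads behind each library, estimated from the smallest steps between FPKM values of short genes, came to about 33300000 in WT replicate 1 and 40200000 to 51500000 in the other 11 libraries. The 5 Pro-E markers Kit, Tfrc, Gata1, Klf1 and Epor summed to 510.0 to 763 FPKM per library and none was at 0. The 7 later erythroblast markers, Slc4a1, Epb42, Alas2, Hemgn, Bpgm, Xpo7 and Bnip3l, summed to 514 to 956 FPKM per library. Both lists thus lay at similar levels, and their sums do not show that the cells were at the Pro-E stage alone. All 7 B cell markers and all 3 T cell markers were under 1 FPKM in every library, and the 8 granulocyte and monocyte markers summed to 2.53 to 36.2 FPKM in WT, 0.887 to 6.42 in β-thalassemic, 1.77 to 11.4 in apoTf-treated β-thalassemic and 3.05 to 47.0 FPKM in apoTf-treated WT libraries. The 5 megakaryocyte markers summed to 5.86 to 15.6 FPKM per library and the 5 macrophage markers to 0.957 to 2.26 FPKM. The part of these cells, or of erythroblast stage, in any value below was not tested. WT replicate 1 stood apart: its median rank correlation with the other libraries was 0.867, against 0.982 to 0.990 for each of the others, and Rn45s, the ribosomal RNA precursor, was at 31177 FPKM in it and at 1609 to 6116 FPKM elsewhere. The main results that involve untreated WT mice are therefore given with and without this library. In β-thalassemic over WT libraries, 4 of the 5 Pro-E markers were lower and 1 higher, at -0.58 to 0.89 on the log2 scale. Without WT replicate 1 these counts stayed, at -0.96 to 0.18. Of the 7 later erythroblast markers, 5 were then lower and 2 higher, at -0.24 to 0.22. Over all genes tested, 6568 were then lower and 3082 higher. No marker of either list had a limma adjusted p under 0.05 in this comparison.

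A Pro-E divides several times within a few days while its nucleus condenses, and the last step of its line, enucleation, uses parts of the cytokinesis machinery. Entry into mitosis is driven by Cdk1 bound to cyclin A or B. The spindle assembly checkpoint holds anaphase until each kinetochore is attached, the anaphase-promoting complex (APC/C) then destroys cyclin B and securin, and the central spindle and contractile ring divide the cell. Transcription of most of these genes rises late in the cell cycle through promoters with a CHR element (cell cycle genes homology region), which binds the DREAM and MuvB complexes, and CCAAT boxes, which bind NF-Y. In sorted cells that are not synchronised, a lower level of such a gene can come from fewer cells in mitosis or from less RNA per cell, which cannot be told apart in these libraries.

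The promoters of these genes hold both elements more often than other promoters do. RefSeq promoters of 300 bases (250 before and 50 after the start, GRCm38.p6) were found for 36 of the 43 members. A CHR hexamer, meaning TTTGAA on either strand, or the palindrome TTCGAA, or the palindrome TTTAAA, was in 31 of the 36 (86.1%), and in 31.9% of the 27025 genes with a promoter in the table. A CCAAT pentamer on either strand was in 27 members (75.0%, against 41.1%), at least 2 were in 17 members (47.2%, against 13.3%), and a CHR together with a CCAAT was in 27 members (75.0%, against 12.8%). An E2F octamer (TTTGGCGC or TTTCGCGC) was in 2 members, Cdk1 and Ncapd2 (5.56%, against 0.929%). In 6 members, namely Aurka, Ccnb1, Ccnb2, Cdk1, Spc25 and Ube2c, 2 CCAAT boxes of the same orientation began 31 to 33 bases apart (16.7%, against 0.918% of all genes), a spacing searched after these promoters had been seen. A match is a run of letters and not a shown binding site. The 120 bases before the start are printed for 5 members with both elements and for 2 that have neither, on the strand of the gene, with CHR and CCAAT (or its reverse, ATTGG) in capitals.
Ccnb1 (chr13:100786487-100786606, minus strand): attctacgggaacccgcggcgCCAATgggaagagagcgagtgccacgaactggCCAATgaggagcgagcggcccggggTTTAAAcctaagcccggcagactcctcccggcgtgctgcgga
Cdk1 (chr10:69352913-69353032, minus strand): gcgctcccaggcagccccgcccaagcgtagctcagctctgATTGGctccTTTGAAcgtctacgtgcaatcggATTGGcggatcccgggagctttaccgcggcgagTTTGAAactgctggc
Cdc20 (chr4:118437344-118437463, minus strand): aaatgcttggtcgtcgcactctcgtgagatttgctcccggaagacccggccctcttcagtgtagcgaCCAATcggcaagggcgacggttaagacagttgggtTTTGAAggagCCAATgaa
Plk1 (chr7:122159315-122159434, plus strand): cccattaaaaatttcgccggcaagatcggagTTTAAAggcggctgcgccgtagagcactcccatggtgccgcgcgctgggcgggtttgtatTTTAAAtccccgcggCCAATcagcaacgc
Top2a (chr11:99024190-99024309, minus strand): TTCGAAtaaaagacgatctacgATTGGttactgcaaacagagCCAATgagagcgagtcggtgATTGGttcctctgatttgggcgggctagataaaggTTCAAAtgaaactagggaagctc
Nusap1 (chr2:119618178-119618297, plus strand): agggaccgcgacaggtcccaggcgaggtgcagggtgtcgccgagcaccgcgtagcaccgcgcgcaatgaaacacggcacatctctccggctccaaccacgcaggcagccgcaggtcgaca
Pttg1 (chr11:43425982-43426101, minus strand): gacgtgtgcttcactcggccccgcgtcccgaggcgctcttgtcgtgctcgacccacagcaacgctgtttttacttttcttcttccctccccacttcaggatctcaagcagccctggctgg
Ccnb1 and Cdk1 each show a spaced pair of CCAAT boxes near a CHR, Top2a has 3 boxes between 2 hexamers, and in Cdc20 and Plk1 a CCAAT lies between a CHR and the start. Of the 36 members with a promoter, the 5 with no CHR anywhere in its 300 bases were Mad2l1, Ncaph, Nuf2, Nusap1 and Pttg1.

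**Figure D1:**
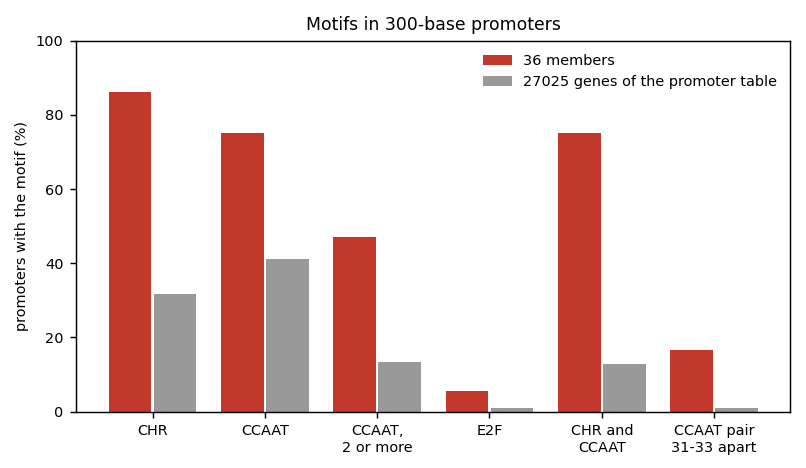
Share of promoters (%, y axis) that hold each motif (x axis), for the 36 members with a promoter in the RefSeq table (red bars) and for all 27025 genes in it (grey bars). A CHR together with a CCAAT was in 75.0% of members and 12.8% of all genes.

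All 43 members were at 5 FPKM or more in all 12 libraries, and all passed the filter for testing (at least 1 FPKM in at least 3 libraries), which 9650 of the 24453 genes passed. Their median level over the 11 libraries other than WT replicate 1 was 48.9 FPKM, against 9.08 FPKM over all genes tested. The highest was Mki67 and the lowest Pttg1. Mki67 was at 168, 355 and 231 FPKM in the WT libraries, at 364, 372 and 289 FPKM in β-thalassemic, at 297, 377 and 382 FPKM in apoTf-treated β-thalassemic and at 312, 439 and 397 FPKM in apoTf-treated WT libraries. Ki-67, its product, coats mitotic chromosomes and is absent from resting cells. Pttg1 was at 8.86, 10.6 and 12.1 FPKM in the WT libraries, at 9.85, 10.8 and 11.3 FPKM in β-thalassemic, at 11.99, 10.97 and 10.9 FPKM in apoTf-treated β-thalassemic and at 12.3, 11.9 and 9.97 FPKM in apoTf-treated WT libraries. Pttg1 encodes securin, which restrains separase until anaphase, and its levels overlapped between all groups. Top2a, the topoisomerase that unlinks sister DNA molecules, was second at a mean of 231 FPKM over the 11 libraries, and Ccna2 (194 FPKM), Smc4 (142 FPKM) and Birc5 (121 FPKM) followed.

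Over those 11 libraries the levels were close to flat. The ratio of the highest to the lowest library had a median of 1.33 over the members. Its median was 1.40 over the 5914 genes tested that were at 5 FPKM or more in all 11, which were not matched to the members in level. The ratio was at most 1.5 in 36 of the 43 members and over 2 in 2, Cenpf (2.23) and Cdc25b (2.12). Cdc25b was at 45.4, 41.97 and 34.9 FPKM in the WT libraries, at 39.2, 46.5 and 46.1 FPKM in β-thalassemic, at 25.7, 46.2 and 53.9 FPKM in apoTf-treated β-thalassemic and at 25.5, 51.03 and 44.4 FPKM in apoTf-treated WT libraries. Cdc25b, a phosphatase that removes inhibitory phosphates from Cdk1, was thus lowest in replicate 1 of both apoTf-treated groups and shares part of its exons with Spef1, from which reads counted on both strands cannot be separated. The steadiest members were Bub1b (1.14) and Mad2l1 (1.17), both of the spindle assembly checkpoint. ApoTf-treated WT replicate 2 was the highest of the 11 in 25 members and apoTf-treated β-thalassemic replicate 2 in 9, while β-thalassemic replicate 3 was the lowest in 18.

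The members varied together. After removal of group means, the correlation over the 11 libraries of each member with the mean of the other 42 had a median of 0.79, and was over 0.5 in 37 members, which 10.1% of the other genes tested reached. Ube2c (0.96), Ect2 (0.95) and Kif4 (0.95) had the highest values. Pttg1 (-0.36) and Mad2l1 (0.02) had the lowest, followed by Plk1 (0.15) and Ncapd2 (0.24). The other members without a CHR in their 300-base promoter, Nusap1 (0.94), Nuf2 (0.84) and Ncaph (0.77), were near or above the median. Libraries share their depth, scaling and base composition across genes, so these values describe the libraries and were not tested.

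**Figure D2:**
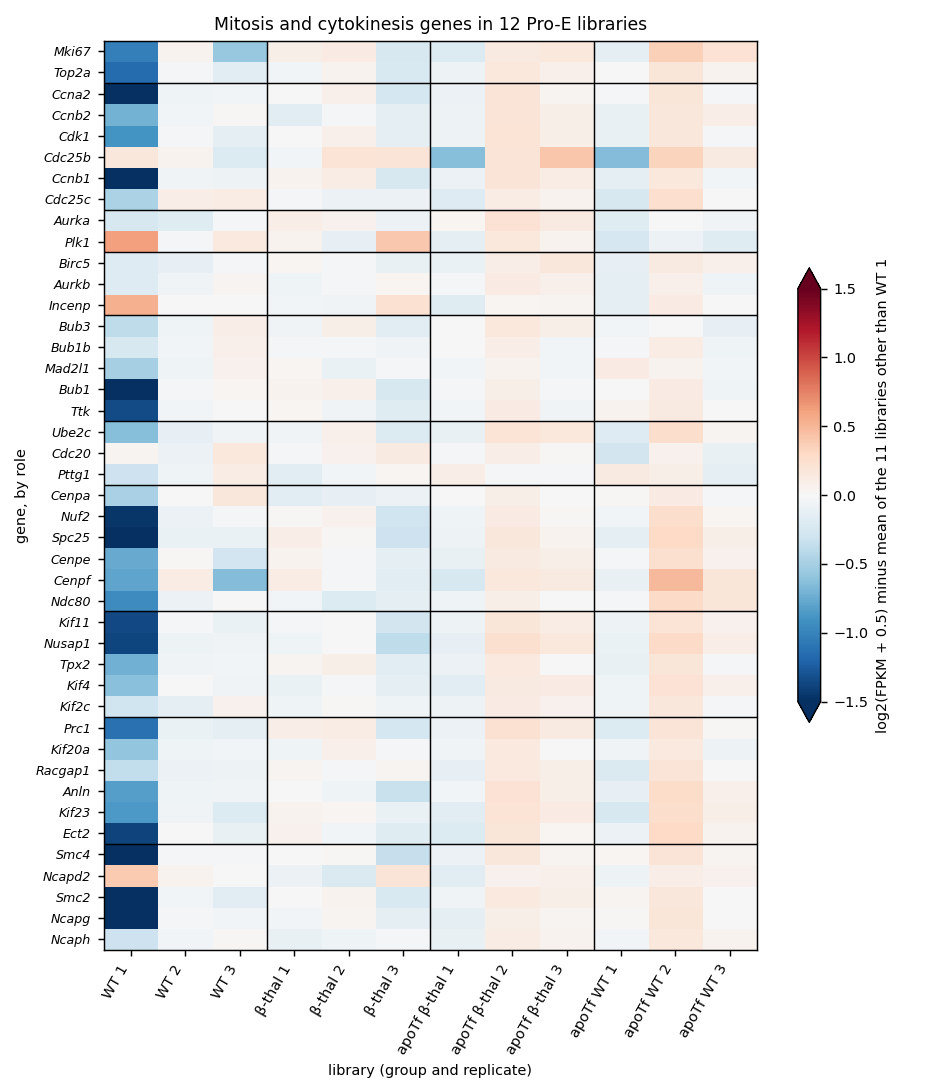
Level of each of the 43 members (rows, grouped by role) in the 12 libraries (columns), as log2(FPKM + 0.5) minus the member's mean over the 11 libraries other than WT replicate 1; blue is lower and red is higher. WT replicate 1 was the lowest library in 38 members and the highest in Plk1, Incenp and Ncapd2.

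WT replicate 1 held less of most members. It was the lowest of the 12 libraries in 38 of the 43 members, which was so for 54.7% of all genes tested, and the highest in 3, Plk1, Incenp and Ncapd2 (19.4% of genes tested). It was under 0.5 times the mean of the other WT libraries in 14 members and in 29.5% of genes tested, and the median departure from those libraries was -0.62 on the log2 scale over members and -0.41 over all genes tested. Ccnb1 was furthest away. Ccnb1 was at 5.32, 28.4 and 27.9 FPKM in the WT libraries, at 30.6, 31.8 and 24.9 FPKM in β-thalassemic, at 27.6, 33.7 and 31.8 FPKM in apoTf-treated β-thalassemic and at 26.8, 33 and 28.7 FPKM in apoTf-treated WT libraries. Ccnb1 encodes cyclin B1, the main partner of Cdk1 at mitotic entry, and the 11 other libraries lay within a range of 1.36 times. The departure moved with base composition: across the 43 members its Pearson correlation with the GC content of the longest coding transcript was 0.78 (Spearman 0.77), and over the 8693 genes tested that have such a transcript it was 0.82 (Spearman 0.83). The 21 members with a GC content of up to 46.1% had a median departure of -1.32 and the 22 members from 46.3% upward had -0.29. Length moved with it little (Pearson -0.11 and Spearman -0.20 across members). Condensin I shows the contrast within 1 complex: Smc2 (39.7% GC), Smc4 (40.2%) and Ncapg (39.8%) departed by -1.86, -1.81 and -1.67, while Ncapd2 (54.0% GC) departed by 0.36. β-thalassemic replicate 3, the library with the second highest Rn45s, had a Pearson correlation of 0.66 with GC content across members. Values of similar size and opposite sign were those of WT replicates 2 (-0.77) and 3 (-0.66) and of β-thalassemic replicate 1 (-0.65). Each departure is taken from the other libraries of its group, so a deviating library moves those of its group the opposite way. The part of ribosomal RNA content and of base composition in these departures was not tested.

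**Figure D3:**
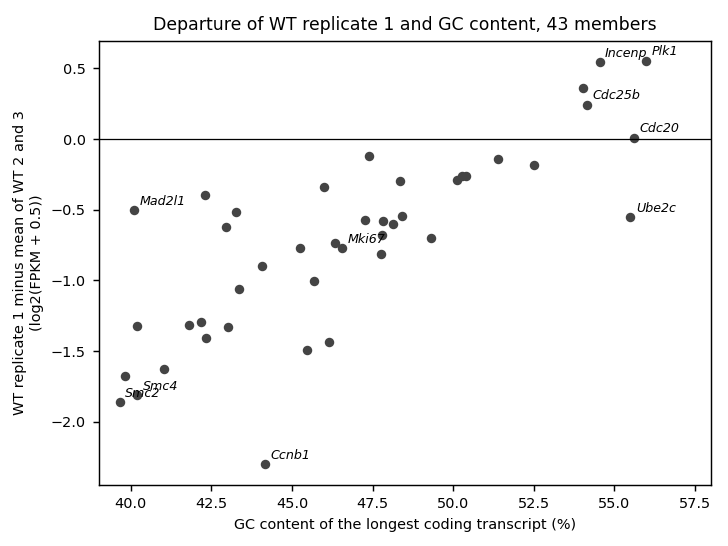
Departure of WT replicate 1 from the mean of WT replicates 2 and 3 (y axis, log2(FPKM + 0.5)) against the GC content of the longest coding transcript (x axis, %), 1 point for each of the 43 members. Members of low GC content were lower in this library (Ccnb1, Smc2 and Smc4 at the bottom) and Plk1 and Incenp were higher.

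β-thalassemic and WT Pro-E were compared first, which asks whether the mutant precursors carry more or less of the division machinery. None of the 43 members was called by limma at an adjusted p under 0.05, where 0.259% of all genes tested were called in either direction, and none had an unadjusted p under 0.05 (7.66% of genes tested). Without WT replicate 1, again none was called (0.321% of genes tested) and none had an unadjusted p under 0.05 (7.76%). The median log2 fold change of the members was 0.22, beside 0.08 over all genes tested. Of the members 39 were above 0, as were 5778 of the 9650 genes tested. Without WT replicate 1 the median of the members was 0.01, beside -0.06. Then 22 members were above 0 and 21 below, against 3082 above and 6568 below of all genes tested. The 95% interval of the fold change lay wholly within 0.5 log2 units of 0 in 12 members with all libraries and in 40 of the 43 without WT replicate 1, and within 1 log2 unit in 30 and in 43. So, without that library, a difference as large as 2-fold lay outside the interval of each member.

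Without WT replicate 1, all 5 checkpoint genes lay between -0.06 and -0.04 on the log2 scale, the 5 condensin I genes between -0.08 and 0.05, the 3 passenger complex genes between -0.0063 and 0.05, and the 6 genes of the central spindle and cytokinesis between -0.07 and 0.12. The widest intervals with all libraries were those of Ccnb1, Smc2 and Smc4, which were low in WT replicate 1. Of the cyclins and their kinase, Ccnb1 had a log2 fold change of 0.80 ± 0.47 (SE) with all libraries and 0.04 ± 0.13 without WT replicate 1, on the values given above. For Mki67, which had the smallest p of the members, these were 0.50 ± 0.25 (adjusted p = 0.528, limma) and 0.25 ± 0.21 (adjusted p = 0.866, limma), and WT replicate 3 at 231 FPKM also lay under all β-thalassemic libraries. Smc2 was at 23.2, 89.2 and 81.96 FPKM in the WT libraries, at 91.9, 95.3 and 78.6 FPKM in β-thalassemic, at 88.6, 102 and 97.3 FPKM in apoTf-treated β-thalassemic and at 94.3, 104 and 91.4 FPKM in apoTf-treated WT libraries. Smc2, an ATPase subunit that condensin I and II share, varied by at most 1.32 times over the other 11 libraries. Its log2 fold change was 0.67 ± 0.38 with and 0.05 ± 0.12 without WT replicate 1. Bub1 was at 8.96, 28.2 and 29.2 FPKM in the WT libraries, at 29.8, 30.2 and 24.2 FPKM in β-thalassemic, at 28.4, 30.5 and 28.04 FPKM in apoTf-treated β-thalassemic and at 28.6, 31.3 and 27.4 FPKM in apoTf-treated WT libraries. Bub1, the checkpoint kinase at unattached kinetochores, had a log2 fold change of 0.50 ± 0.34 with all libraries and -0.04 ± 0.11 without WT replicate 1, with WT replicates 2 and 3 inside the range of the β-thalassemic libraries. Prc1 was at 33.5, 68.7 and 66.7 FPKM in the WT libraries, at 78.6, 79.5 and 61.3 FPKM in β-thalassemic, at 69.4, 86.2 and 80.8 FPKM in apoTf-treated β-thalassemic and at 63.5, 84.4 and 74.4 FPKM in apoTf-treated WT libraries. Prc1, which bundles the microtubules of the central spindle, had a log2 fold change of 0.44 ± 0.25 and of 0.10 ± 0.15 without WT replicate 1, and β-thalassemic replicate 3 was under both of those WT libraries.

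The 6 centromere and kinetochore genes had the widest range of the roles, from -0.21 to 0.24 on the log2 scale without WT replicate 1. Cenpf was at 14.03, 26.6 and 15.5 FPKM in the WT libraries, at 26.6, 24.1 and 21.9 FPKM in β-thalassemic, at 20.8, 27.5 and 27.1 FPKM in apoTf-treated β-thalassemic and at 22.6, 34.7 and 27.9 FPKM in apoTf-treated WT libraries. Cenpf, a large protein of the outer kinetochore, was low in WT replicates 1 and 3 and high in WT replicate 2, and its groups overlapped. Its log2 fold change was 0.42 ± 0.24 and 0.24 ± 0.22 without WT replicate 1. Cenpa was at 64.2, 90.1 and 102 FPKM in the WT libraries, at 80.9, 83.1 and 84.7 FPKM in β-thalassemic, at 89.6, 95.7 and 90.7 FPKM in apoTf-treated β-thalassemic and at 91.4, 98.7 and 88.9 FPKM in apoTf-treated WT libraries. Cenpa, the histone H3 variant that marks the centromere, was lower in all β-thalassemic libraries than in WT replicates 2 and 3 but higher than in WT replicate 1. Its log2 fold change without WT replicate 1 was -0.21 ± 0.10 (95% interval -0.43 to 0.01, adjusted p = 0.664, limma), and with it -0.02 ± 0.16.

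The mitotic kinases, the passenger complex and the APC/C genes lay between -0.08 and 0.13 on the log2 scale without WT replicate 1. Aurka was at 47.9, 50.3 and 55.6 FPKM in the WT libraries, at 61.2, 59.7 and 53.3 FPKM in β-thalassemic, at 57.9, 66.01 and 62.2 FPKM in apoTf-treated β-thalassemic and at 49.97, 57.1 and 54.6 FPKM in apoTf-treated WT libraries. Aurka, the Aurora kinase of centrosomes and spindle poles, had a log2 fold change of 0.18 ± 0.13 and of 0.13 ± 0.11 without WT replicate 1. Tpx2 was at 33.6, 53.9 and 54.02 FPKM in the WT libraries, at 57.6, 59.03 and 49.8 FPKM in β-thalassemic, at 52.6, 61.7 and 56.2 FPKM in apoTf-treated β-thalassemic and at 51.7, 63.2 and 55.1 FPKM in apoTf-treated WT libraries. Tpx2, which activates Aurora A on spindle microtubules, had 0.26 ± 0.19 and 0.04 ± 0.12, and both sets of libraries overlapped. Incenp was at 70.4, 48.3 and 48.1 FPKM in the WT libraries, at 47.1, 46.7 and 56.7 FPKM in β-thalassemic, at 42.5, 49.3 and 49.9 FPKM in apoTf-treated β-thalassemic and at 43.8, 52.8 and 48.1 FPKM in apoTf-treated WT libraries. Incenp, the scaffold of the chromosomal passenger complex with Aurkb and Birc5, was highest in WT replicate 1, with -0.13 ± 0.17 with it and 0.05 ± 0.12 without it. Ube2c was at 63.6, 91.2 and 95.7 FPKM in the WT libraries, at 96.3, 105 and 86.5 FPKM in β-thalassemic, at 92.3, 115 and 111 FPKM in apoTf-treated β-thalassemic and at 86.9, 119 and 103 FPKM in apoTf-treated WT libraries. Ube2c, the ubiquitin-conjugating enzyme of the APC/C, had 0.22 ± 0.19 and 0.03 ± 0.15. Its groups overlapped, and part of its exons overlap Tnnc2.

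Racgap1 was the member whose β-thalassemic libraries all lay above all WT libraries, where 3.68% of genes tested did so (4.47% without WT replicate 1). Leaving out a library cannot undo such a separation, so its persistence is no further support, here or below. Racgap1 was at 24.03, 29.3 and 29.5 FPKM in the WT libraries, at 32.1, 30.9 and 32.1 FPKM in β-thalassemic, at 28.6, 34.5 and 32.99 FPKM in apoTf-treated β-thalassemic and at 26.8, 35.8 and 30.99 FPKM in apoTf-treated WT libraries. Racgap1 forms centralspindlin with Kif23 at the cleavage site. Its log2 fold change was 0.20 ± 0.15 (95% interval -0.12 to 0.52, adjusted p = 0.528, limma) and 0.11 ± 0.12 without WT replicate 1. No member had all β-thalassemic libraries below all WT libraries (3.24% of genes tested); without WT replicate 1, Cdc25c and Cenpa did (12.3% of genes tested).

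**Figure D4:**
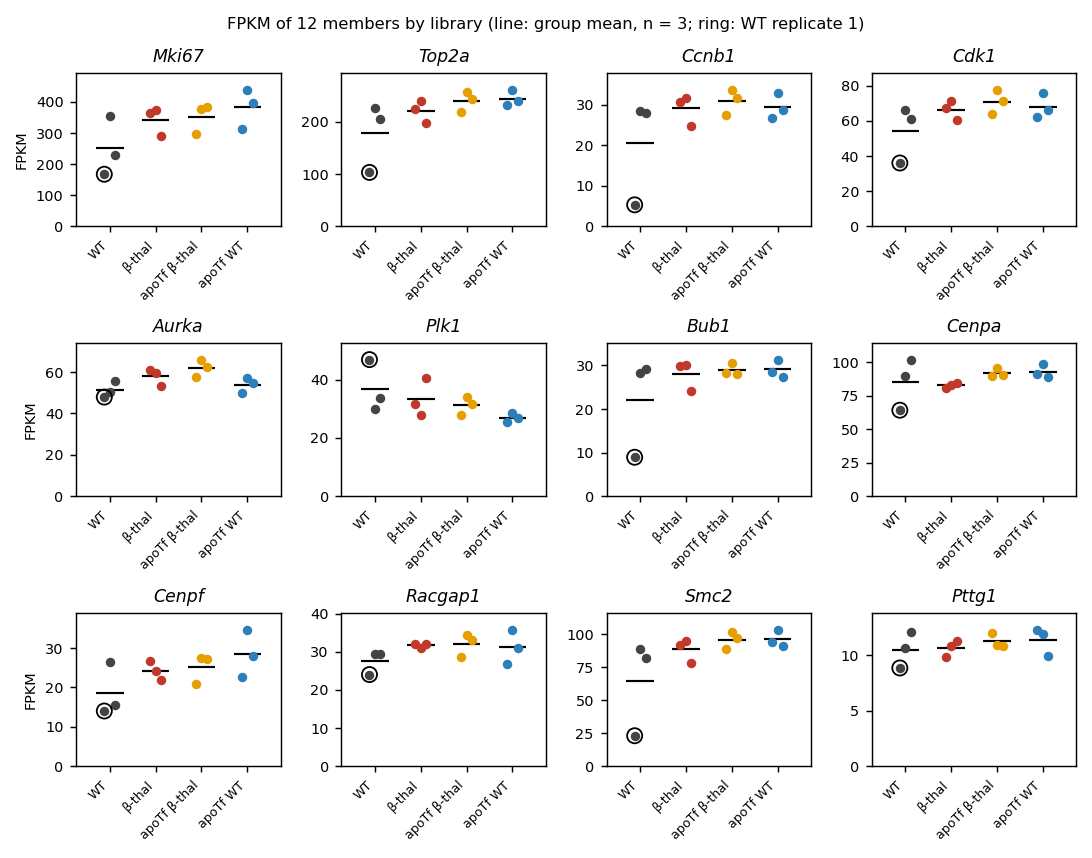
FPKM (y axis, from 0) of 12 members in each library (points), by group (x axis), with the group mean as a line (n = 3 libraries) and a ring around WT replicate 1. Apart from that library the 4 groups lie at similar levels in Ccnb1, whose other libraries were at 24.9 to 33.7 FPKM. In Mki67 (231 FPKM) and Cenpf (15.5 FPKM), WT replicate 3 was the lowest of the other libraries.

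Next, β-thalassemic Pro-E after apoTf were set against those after PBS, which asks whether the treatment alters these genes in the disease. None of the 43 members was called (0.0311% of genes tested were) and none had an unadjusted p under 0.05 (1.43%) in the limma fit of all 12 libraries. WT replicate 1 enters here only through the shared spread, and without it none was called (0.0622%) or had an unadjusted p under 0.05 (3.88%). Of the members 39 were above 0 and 4 below, against 5736 above and 3914 below of all genes tested. The median log2 fold change of the members was 0.08, beside 0.03 over all genes tested, and values ran from -0.13 to 0.23. The median was 0.03 without β-thalassemic replicate 3 and 0.16 without apoTf-treated β-thalassemic replicate 1. Intervals lay within 0.5 log2 units of 0 in 18 members, and in 41 once WT replicate 1 was left out of the spread; in that fit all 43 lay within 1.

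All 6 kinetochore, all 6 cytokinesis, all 5 checkpoint, all 5 spindle and all 5 condensin I genes were above 0, at medians of 0.11, 0.06, 0.06, 0.12 and 0.08, and none passed the test. The largest value belonged to a spindle gene. Nusap1 was at 29.8, 74.2 and 75.5 FPKM in the WT libraries, at 74.8, 78.9 and 60.01 FPKM in β-thalassemic, at 71.6, 92.3 and 87.4 FPKM in apoTf-treated β-thalassemic and at 73.3, 95.7 and 83.97 FPKM in apoTf-treated WT libraries. Nusap1 binds and stabilises spindle microtubules and shares exons with Oip5; its log2 fold change was 0.23 ± 0.30 and the groups overlapped, β-thalassemic replicate 3 being the lowest of the 6 libraries. Anln was at 16.8, 28.8 and 29.2 FPKM in the WT libraries, at 30.4, 28.8 and 23.8 FPKM in β-thalassemic, at 29.3, 35.3 and 32.1 FPKM in apoTf-treated β-thalassemic and at 27.8, 36.8 and 31.9 FPKM in apoTf-treated WT libraries. Anln encodes anillin, which links the contractile ring to the membrane, and had the smallest p, with a log2 fold change of 0.22 ± 0.21 (adjusted p = 1.00, limma) and overlapping groups. Ccnb2 was at 63.6, 102 and 106 FPKM in the WT libraries, at 92.5, 102 and 95.3 FPKM in β-thalassemic, at 99.3, 119 and 111 FPKM in apoTf-treated β-thalassemic and at 96.3, 117 and 112 FPKM in apoTf-treated WT libraries. Ccnb2, the second B-type cyclin, had 0.18 ± 0.19, and Ccnb1 had 0.09 ± 0.47 with all libraries in the fit and an SE of 0.12 without WT replicate 1. Mki67 had 0.04 ± 0.25.

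The checkpoint, passenger and condensin genes lay between -0.08 and 0.15 on the log2 scale. Bub3 was at 44.6, 55.6 and 62.2 FPKM in the WT libraries, at 55.8, 61.9 and 52.2 FPKM in β-thalassemic, at 58.4, 65.05 and 61.8 FPKM in apoTf-treated β-thalassemic and at 56.6, 57.9 and 53.1 FPKM in apoTf-treated WT libraries. Bub3, the adaptor that brings Bub1 and BubR1 to kinetochores, had a log2 fold change of 0.13 ± 0.14. Birc5 was at 105, 111 and 118 FPKM in the WT libraries, at 124, 118 and 112 FPKM in β-thalassemic, at 113, 129 and 136 FPKM in apoTf-treated β-thalassemic and at 111, 133 and 128 FPKM in apoTf-treated WT libraries. Birc5 (survivin), which targets the passenger complex to the centromere, had 0.09 ± 0.13. Ncaph was at 37.2, 44.9 and 46.9 FPKM in the WT libraries, at 42.8, 44.4 and 45.9 FPKM in β-thalassemic, at 42.9, 50.1 and 47.97 FPKM in apoTf-treated β-thalassemic and at 44.8, 51.6 and 48.2 FPKM in apoTf-treated WT libraries. Ncaph, the kleisin of condensin I, had 0.08 ± 0.13, and in each of these genes the groups overlapped. Ube2c had 0.14 ± 0.19, Aurka 0.10 ± 0.13 and Top2a 0.13 ± 0.24. Cenpa was the member whose treated libraries all lay above the untreated ones, as in 6.76% of genes tested, by 0.15 ± 0.16 on the log2 scale (adjusted p = 1.00, limma); none lay wholly below (2.89% of genes tested).

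**Figure D5:**
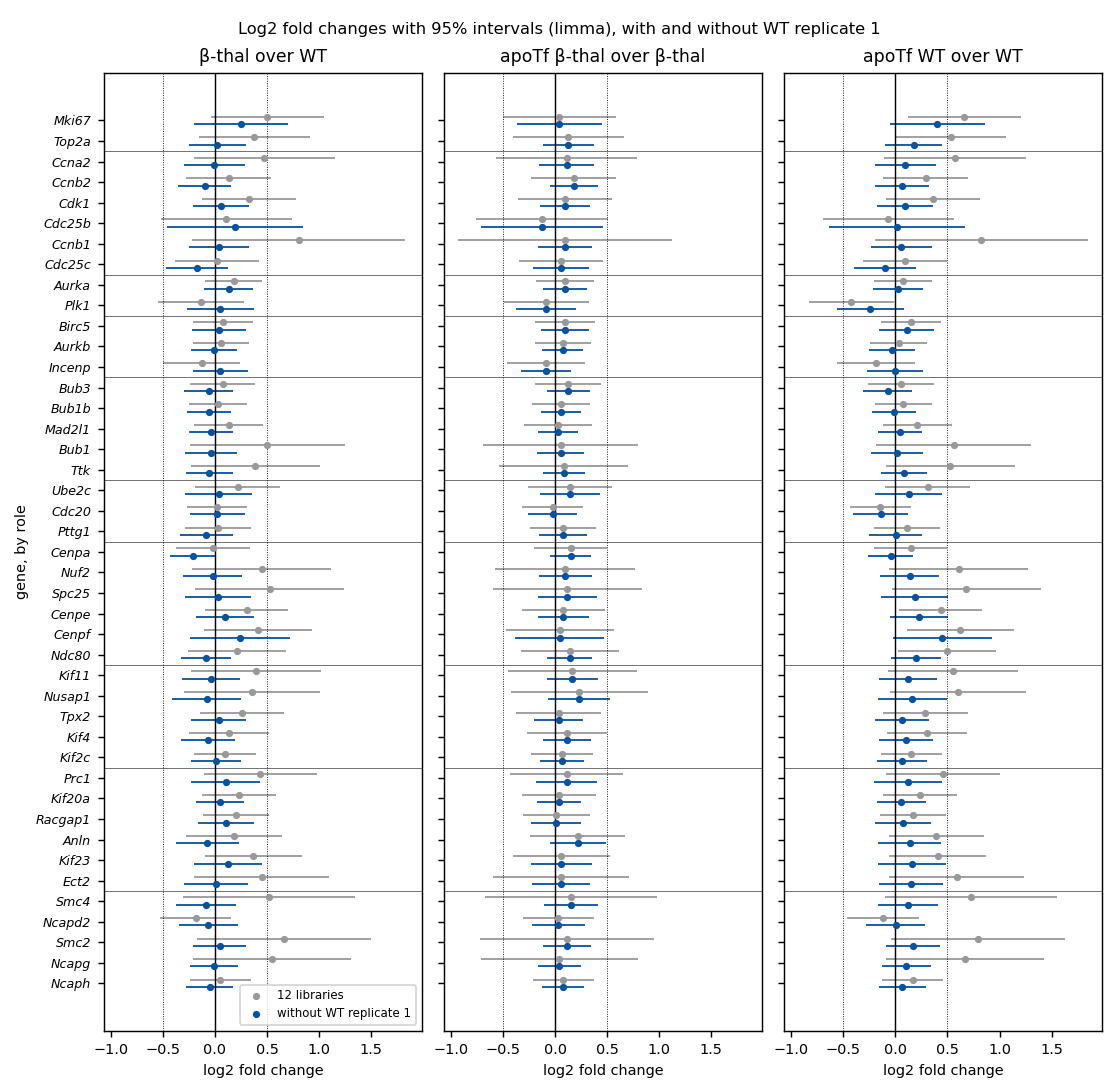
Log2 fold change (x axis; points) with its 95% interval (lines) for each of the 43 members (y axis, grouped by role) in 3 comparisons, from the limma fit of 12 libraries (grey) and without WT replicate 1 (blue); dotted lines mark 0.5 log2 units either way. Without that library the intervals narrow, and those within the dotted lines rise from 12 to 40 in the comparison of β-thalassemic with WT Pro-E.

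In WT mice, where no disease is present, apoTf-treated Pro-E were compared with untreated ones. None of the members was called, and 0% of genes tested were, in the fit of 12 libraries and without WT replicate 1; an unadjusted p under 0.05 was reached by 4 members higher and 1 lower (1.4% and 8.8% of genes tested, 10.2% together) and by none without WT replicate 1 (4.64%). Leaving out WT replicate 2 instead, so that WT replicates 1 and 3 stood for the group, 2 members passed, Mki67 (0.94 on the log2 scale) and Cenpf (0.90, adjusted p = 0.0416 for both, limma), among 449 genes called, which is 4.65% of genes tested and the share of members that passed. The median log2 fold change was 0.31, beside 0.10 over all genes tested, and 0.08, beside -0.06, without WT replicate 1. Intervals lay within 0.5 log2 units in 13 members and, without that library, in 37.

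The 5 members with an unadjusted p under 0.05 were Mki67, Cenpe, Cenpf and Ndc80 (higher) and Plk1 (lower). Mki67 and Cenpf were low in WT replicate 3 as well as in WT replicate 1. Mki67 had a log2 fold change of 0.66 ± 0.25 (adjusted p = 0.410, limma) and of 0.40 ± 0.21 (adjusted p = 0.998) without WT replicate 1, and its treated libraries at 312 to 439 FPKM overlapped WT replicate 2 at 355 FPKM. Cenpf had 0.62 ± 0.24 and 0.45 ± 0.22, and WT replicate 2 at 26.6 FPKM again lay among the treated libraries. The transcripts of both genes are the longest of the members, 10061 bases in Mki67 and 11130 in Cenpf. Across members, departures correlated with log2 length at Pearson -0.19 (Spearman -0.06) in WT replicate 3 and -0.11 (Spearman -0.20) in WT replicate 1. In WT replicate 2 the correlation was 0.37 (Spearman 0.40). The part of length in these values was not tested. Plk1 was at 46.8, 29.8 and 33.8 FPKM in the WT libraries, at 31.7, 27.9 and 40.4 FPKM in β-thalassemic, at 27.7, 34.03 and 31.6 FPKM in apoTf-treated β-thalassemic and at 25.4, 28.5 and 26.7 FPKM in apoTf-treated WT libraries. Plk1, the Polo kinase, was lower in all treated than in all WT libraries (8.29% of genes tested, and 10.4% without WT replicate 1), at -0.42 ± 0.19 on the log2 scale and at -0.24 ± 0.15 without WT replicate 1, and neither value was called.

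Top2a, Ccna2, Ttk, Smc2, Smc4 and Ncapg were higher in all treated than in all WT libraries, where 2.61% of genes tested were. Without WT replicate 1 (2.79%) these 6 members necessarily remain so. Top2a was at 103, 227 and 205 FPKM in the WT libraries, at 224, 239 and 197 FPKM in β-thalassemic, at 219, 257 and 243 FPKM in apoTf-treated β-thalassemic and at 232, 261 and 239 FPKM in apoTf-treated WT libraries. Top2a had a log2 fold change of 0.53 ± 0.24, and of 0.18 ± 0.13 (95% interval -0.10 to 0.45) without WT replicate 1. Ccna2 was at 68.5, 185 and 187 FPKM in the WT libraries, at 194, 204 and 161 FPKM in β-thalassemic, at 182, 222 and 199 FPKM in apoTf-treated β-thalassemic and at 189, 219 and 190.5 FPKM in apoTf-treated WT libraries. Ccna2, cyclin A2, had 0.57 ± 0.31 and 0.10 ± 0.13, and shares exons with Exosc9. Ttk was at 6.08, 15.7 and 16.3 FPKM in the WT libraries, at 16.5, 15.6 and 14.2 FPKM in β-thalassemic, at 15.8, 17.7 and 15.6 FPKM in apoTf-treated β-thalassemic and at 16.8, 17.9 and 16.3 FPKM in apoTf-treated WT libraries. Ttk (Mps1), the kinase at the top of the checkpoint, had 0.53 ± 0.28 and 0.08 ± 0.10, and its lowest treated library exceeded WT replicate 3 by under 1 FPKM.

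In the remaining roles, too, most values lay closer to 0 without WT replicate 1. Ect2 was at 8.90, 23.97 and 22.1 FPKM in the WT libraries, at 25.2, 23.3 and 21.1 FPKM in β-thalassemic, at 20.7, 27.4 and 24.6 FPKM in apoTf-treated β-thalassemic and at 22.6, 29.7 and 24.9 FPKM in apoTf-treated WT libraries. Ect2, the exchange factor that centralspindlin recruits to the cell equator, had 0.59 ± 0.30 and 0.15 ± 0.14 without WT replicate 1, and the groups overlapped. Nusap1 had 0.60 ± 0.30 and 0.16 ± 0.15, Smc2 0.79 ± 0.38 and 0.17 ± 0.12, and Ube2c 0.31 ± 0.19 and 0.13 ± 0.15. Birc5 had 0.15 ± 0.13 and 0.11 ± 0.12.

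Treated β-thalassemic Pro-E were also set against WT Pro-E, which share the WT libraries with the comparisons above. None of the members was called (0.0518% of genes tested), and 2, Prc1 and Mki67, had an unadjusted p under 0.05, both higher (1.99%, and 4.15% in either direction), and none without WT replicate 1 (0.0725% called, 2.46% unadjusted in either direction). The median log2 fold change was 0.35, beside 0.10 over all genes tested, and 0.07, beside -0.05, without WT replicate 1. Intervals lay within 0.5 log2 units in 11 members and, without that library, in 38. Aurka, Spc25, Anln and Prc1 were higher in all treated β-thalassemic than in all WT libraries (4.05% of genes tested, and 4.77% without WT replicate 1). Prc1 had a log2 fold change of 0.55 ± 0.25 (adjusted p = 0.511, limma) and 0.21 ± 0.15 without WT replicate 1. Spc25, a subunit of the NDC80 complex that binds microtubules, had 0.64 ± 0.33 and 0.15 ± 0.15. Aurka had 0.27 ± 0.13 and 0.23 ± 0.11, and was thus the member whose value depended least on that library among these 3.

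Between the treated genotypes, a comparison without untreated WT libraries, the members lay on both sides of 0, with 21 above and 22 below. Of all genes tested, 5290 were above and 4360 below. The members had a median of -0.0044 on the log2 scale, beside 0.01 over all genes tested. None was called (0.0415% of genes tested, and 0.0725% without WT replicate 1 in the spread) and none had an unadjusted p under 0.05 (1.41% and 3.62%). Intervals lay within 0.5 log2 units in 23 members, and in 40 without WT replicate 1. Aurka and Bub3 were higher in all β-thalassemic than in all WT treated libraries (8.88% of genes tested), by 0.20 ± 0.13 and 0.14 ± 0.14 (adjusted p = 1.00 for both, limma). In these groups the replicate numbers went together, all 3 pairs with the same number having deviations that correlated over 0.1. With the number as a block and the treated libraries alone in the fit, again no member was called, but 213 genes were in place of 4 (2.21% of genes tested). An unadjusted p under 0.05 was then reached by 6 members, where 19.8% of genes tested reached it. They were Aurka, Plk1 (0.21 on the log2 scale), Bub3 and Cdc20 (0.14), which were above 0, and Cenpf (-0.16) and Ndc80 (-0.14). The smallest adjusted p was that of Aurka (0.0599, limma), and all 43 intervals lay within 0.5 log2 units.

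Whether apoTf acted differently in the 2 genotypes was tested as an interaction. None of the members was called, nor was any gene tested (0% with all libraries and without WT replicate 1), and none of the members had an unadjusted p under 0.05, which 4.9% and 4.94% of genes tested had. The median interaction was -0.20, beside -0.08 over all genes tested, and 0.0022, beside 0.08, without WT replicate 1. Mki67 had -0.62 ± 0.35 (adjusted p = 0.764, limma) and -0.36 ± 0.28, and Cenpf -0.58 ± 0.33 and -0.40 ± 0.29, without WT replicate 1. Intervals of the interaction were wider than those of the single comparisons: 33 of 43 lay within 0.5 log2 units and 41 within 1 without WT replicate 1, and 5 and 25 with it.

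Other genes of division gave no call either. Of 71 other mitosis genes 69 were tested. None was called in any of the 6 comparisons, with or without WT replicate 1 (limma, adjusted p under 0.05). The same held for 17 genes of the APC/C, 11 of cohesin, 23 transcription regulators of mitotic genes and 32 of DNA replication. Over all genes tested, 0% to 0.321% were called in these fits, and at that share lists of this size would hold few or no calls. Between β-thalassemic and WT Pro-E their median log2 fold changes were 0.22, 0.06, 0.37, 0.22 and 0.11 with all libraries, and -0.02, -0.08, -0.00013, 0.01 and -0.0085 without WT replicate 1. At an unadjusted p under 0.05 that comparison held 1 lower gene of the 69, Pkmyt1, the kinase that inhibits Cdk1, 1 regulator of 23 and 3 replication genes of 32, where 7.66% of genes tested had such a p, and without WT replicate 1 the regulator and 1 replication gene (7.76%). These counts are near or below that share. The regulator was E2f7, an E2F repressor, with 0.65 ± 0.19 on the log2 scale (adjusted p = 0.437, limma) and 0.71 ± 0.20 (adjusted p = 0.240) without WT replicate 1. In apoTf-treated β-thalassemic over untreated Pro-E it was at -0.41 ± 0.19 (adjusted p = 1.00, limma). Levels of E2f7 were 1.66, 1.77 and 1.11 FPKM in WT, 2.68, 2.06 and 3.25 in β-thalassemic, 1.64, 1.76 and 2.20 in apoTf-treated β-thalassemic and 1.71, 1.98 and 2.23 FPKM in apoTf-treated WT libraries.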

How the data were processed

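Pro-E RNA was measured in 12 libraries of 4 groups, 3 each. STAR was used by the authors to place reads on the mm10 genome (reads with more than 1 alignment were dropped); by the study's methods, HOMER counted exon reads of each gene on both strands and gave the deposited FPKM values, while the processing notes of the submitters also name featureCounts, with no role. Tool versions are not given in the sources used here. The deposited log2 fold changes and adjusted p-values of the authors' own comparisons, made within each genotype between apoTf and no apoTf, were not used.

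FPKM were taken to log2(FPKM + 0.5), which understates fold changes of low genes. Genes at 1 FPKM or more in at least 3 libraries were fitted as 4 group means in limma 3.58.1 (R 4.3.3, trended prior variance), and p-values of each comparison were adjusted by the Benjamini-Hochberg method over all genes tested, with a threshold of 0.05; SE and 95% intervals are from this fit. FPKM are not counts, so no count model was used. Between 66.8% and 74.4% of the values of 3501 short genes fell within 0.05 of a whole read, too few to recover reads, and the depths given are estimates. Each library pooled 2–3 mice, and p-values measure the spread between such pools. Exons of 13 members overlap those of another gene in GENCODE M21 (GRCm38), from which lengths and GC contents were taken with Python 3.11.15. Promoters were from RefSeq (GRCm38.p6).

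The members and the gene lists were chosen with earlier results of these data known. Values in every library were given for the members with the smallest p in each role and comparison, for the highest and lowest member and for any past the threshold, and a few more were added after their values were seen. Alternatives were other pseudocounts (0.1 and 1), filters (none, and 5 FPKM), scalings, prior, samples in the fit, a replicate block and each library left out in turn. Removal of GC trends, block and scaling fits without WT replicate 1, and a block fit of the treated groups were chosen after seeing the data. The labels do not say what a replicate number marks. Between the treated groups, deviations from group means correlated at 0.253 to 0.507 in the 3 pairs with the same number and at -0.51 to 0.14 in the 6 others, a pairing read from the data. The fit was tested on simulated data. A marker gene of the Pro-E list is not reported here.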

Additional observations from a re-analysis of the deposited data

How the results depend on the processing

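No member was called under any alternative run except without WT replicate 2 in apoTf-treated over untreated WT Pro-E, where members called ranged from 0 to 2 over the libraries left out. With each library left out, the median log2 fold change of the members ranged from 0.0064 to 0.33 in β-thalassemic over WT, 0.03 to 0.16 in apoTf-treated over untreated β-thalassemic, 0.08 to 0.42 in apoTf-treated over untreated WT, 0.07 to 0.44 in apoTf-treated β-thalassemic over WT, -0.06 to 0.08 between the treated genotypes, and -0.32 to 0.0022 for the interaction.

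Among the members named with values, directions turned for 6, none of them called, and the cause was not tested. In β-thalassemic over WT, Bub1 ranged from -0.0404 (without WT replicate 1) to 0.79, Incenp from -0.22 to 0.0522 (without WT replicate 1) and Cenpa from -0.21 to 0.12. In apoTf-treated over untreated β-thalassemic, Mki67 ranged from -0.0746 to 0.16, with -0.095 after quantile normalization, and Ccnb1 from -0.0122 to 0.18. Incenp was also at 0.12 with median-ratio scaling and 0.14 with GC trends removed, both without WT replicate 1. Birc5 in WT after apoTf was at -0.056 with GC trends removed.

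Median-ratio scaling, which gave WT replicate 1 a factor of 0.768, took the median of all genes in β-thalassemic over WT from 0.08 to 0.01 and that of the members from 0.22 to 0.14, and removal of GC trends gave 0.05 for the members. In apoTf-treated over untreated WT the members' median was 0.31, and 0.22 and 0.10 under those settings.

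Over all groups, deviations from group means correlated over 0.1 in 6 of 18 pairs with the same number and in 12 of 36 with different numbers. Deviations within a group sum to 0, and WT replicate 1 moves those of WT, so these counts cannot show whether the numbers pair the libraries. Between the treated groups all 3 pairs with the same number were over 0.1. The blocked fit of those groups, which called 213 genes in place of 4 and 0 members, was added after seeing the data. With the replicate block over all libraries, 0 members were called in every comparison, and 13 genes in place of 25 in β-thalassemic over WT. With the block and WT replicate 1 left out, Bub1 was at -0.0473 and Incenp at 0.11 in that comparison.

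Counts over all genes depended more on the settings. In β-thalassemic over WT, 25 genes were called, against 8 with a filter of 5 FPKM, 9 with only those groups fitted, 40 after quantile normalization, 45 with median-ratio scaling without WT replicate 1, 87 with GC trends removed (99 also without WT replicate 1) and 6 to 90 over the libraries left out. In apoTf-treated over untreated β-thalassemic the count was 3, against 1 with the block, 5 with only those groups fitted, 7 with no filter and 11 with GC trends removed.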
